A study of Homo sapiens with 18 samples.

Results

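Genes of lysosomal hydrolases, their lipid-binding cofactors, lysosomal membrane proteins and the mannose 6-phosphate receptors were followed in HEK293doxERN2 cells. The genes were named from what their products do, with earlier results of these data known. A gene was kept where at least 10 reads were counted in 3 or more of the 18 libraries. Of 47 named genes, 46 met this rule, among 25435 rows in the count table. The exception was CTSF, a cathepsin listed at 0 in all 18 libraries. The 46 genes encode 9 proteases, 12 glycosidases, 5 sulfatases, 8 lipid enzymes and cofactors, 3 other lumenal proteins, 7 membrane proteins and 2 receptors.

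HEK293doxERN2 is a line of human embryonic kidney cells into which human ERN2 with a Flag tag was placed under doxycycline control. Polyadenylated RNA was sequenced from 6 groups of 3 libraries each. Doxycycline was present for 24 hours at 100 ng/mL, at 10 ng/mL or not at all, and at each of these doses cells received either DMSO as the vehicle or 200 nM thapsigargin for 3 hours. The question that the design addresses is which transcripts change when ERN2 is induced, and how they respond to stress in the endoplasmic reticulum (ER) with and without it. All 6 groups carry the transgene, and no cells without it were analysed here, so the action of doxycycline itself and that of ERN2 cannot be told apart. Nothing in the labels says that libraries of a group came from separate cultures, so p-values measure the spread between these libraries, which may be technical.

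Most lysosomal hydrolases are made on ribosomes at the ER membrane, enter the ER lumen and carry N-linked glycans. In the Golgi their glycans receive a mannose 6-phosphate tag, which the receptors M6PR and IGF2R bind in order to send the enzymes to lysosomes. ERN2, also called IRE1β, belongs to the IRE1 family of ER membrane sensors, whose cytosolic endonuclease splices the mRNA of the transcription factor XBP1 and can also cleave other mRNAs held at the ER. Thapsigargin blocks the calcium pump of the ER and so disturbs protein folding there.

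Library totals ran from 14876416 to 24652240 counts. ERN2 itself checked the doxycycline labels, in CPM, read counts scaled to library size with TMM factors. With vehicle it was 9.26, 6.66 and 7.84 CPM without doxycycline, 23.0, 27.2 and 56.8 CPM at 10 ng/mL and 247, 308 and 244 CPM at 100 ng/mL. With thapsigargin it was 14.4, 10.5 and 12.2 CPM, then 32.3, 54.5 and 111 CPM, then 268, 169 and 167 CPM, in the same order of doses. Within each treatment the doses did not overlap, and in each 10 ng/mL group replicate 3 stood above the others. The thapsigargin labels were checked with DDIT3, a stress-induced transcription factor, whose CPM lay between 9.30 and 17.3 in the 9 vehicle libraries and between 78.6 and 159 in the 9 thapsigargin libraries.

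The 46 lysosomal genes together took 0.422% ± 0.0169 (SD, n = 3) of all counts without doxycycline in vehicle, 0.347% ± 0.0436 at 10 ng/mL and 0.198% ± 0.00586 at 100 ng/mL. In thapsigargin the shares were 0.354% ± 0.00921, 0.279% ± 0.0396 and 0.127% ± 0.0150 in the same order. In both treatments every library at 100 ng/mL lay below every library at 10 ng/mL, and these lay below every library without doxycycline. At 10 ng/mL the library with the most ERN2, replicate 3, had the lowest share, 0.298% in vehicle and 0.236% in thapsigargin. It was the lowest of the 3 libraries in 34 of the 46 genes in vehicle and in 39 in thapsigargin, a count not made over all genes. This order did not hold at 100 ng/mL. There the library with the most ERN2 had a share of 0.202% in vehicle (replicate 2, against 0.192% and 0.202%) and the highest share, 0.143%, in thapsigargin (replicate 1, against 0.114% and 0.125%). Fewer cells of a kind and less RNA per cell cannot be told apart in such bulk libraries.

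**Figure D1:**
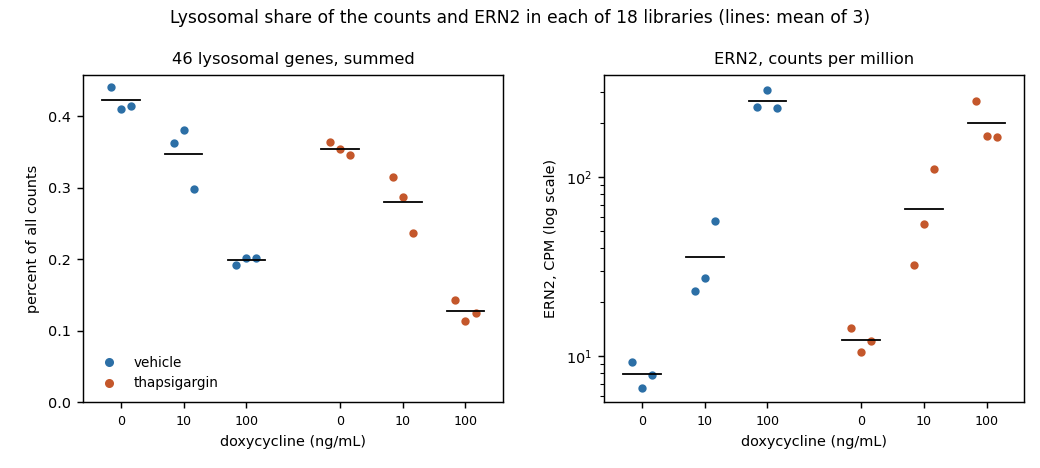
Left, the percent of all counts on the 46 lysosomal genes, and right, ERN2 in CPM on a log scale, against doxycycline dose in ng/mL. Each point is a library, blue with vehicle and orange with thapsigargin, and each line is a mean of 3. The lysosomal share falls from 0.422% to 0.198% in vehicle as ERN2 rises, and the library with the most ERN2 has the lowest share of its group at 10 ng/mL but not at 100 ng/mL.

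Induction at 100 ng/mL in vehicle lowered most of the lysosomal genes. 32 of 46 passed an adjusted p of 0.01 as lower (edgeR's quasi-likelihood test, Benjamini-Hochberg over 14444 genes), where 7.49% of all genes tested did, and 0 passed as higher, where 0.838% of all genes did. At an unadjusted p of 0.05, 36 were lower and 0 higher (17.1% and 12.2% of all genes), and DESeq2 called 33 lower and 0 higher (9.48% and 1.95% of all genes). The median log2 fold change, 100 minus 0 ng/mL, was -0.87 over the 46 genes and -0.0068 over all genes tested, and 44 of the 46 values lay below 0. In 37 genes all 3 libraries at 100 ng/mL lay below all 3 without doxycycline, which held for 18.3% of all genes tested. Of the 32 called genes, 20 fell by a factor of 2 or more, a count not made over all genes.

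Among proteases 7 of 9 fell, with a median log2 fold change of -1.16. CTSA, a carboxypeptidase that also holds lysosomal β-galactosidase and sialidase in a stable complex, was 127, 111 and 128 CPM without doxycycline, 66.3, 75.04 and 44.5 CPM at 10 ng/mL and 26.9, 28.1 and 27.4 CPM at 100 ng/mL. The 3 doses did not overlap, and the fall at 100 ng/mL was 4.43-fold (log2 fold change -2.15, SE 0.11, adjusted p = 1.8e-07). CTSB, a cysteine protease, was 135, 124 and 121 CPM without doxycycline and 33.6, 39.2 and 36.8 CPM at 100 ng/mL, a 3.46-fold fall with no overlap. CTSD, the main aspartic protease of lysosomes, was 289, 254 and 251 CPM and then 100, 144 and 112 CPM, a 2.23-fold fall. Its exons share 41.7% of their bases with an unnamed gene model on the same strand, AC068580.4, so its reads may be split.

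CTSO, a cysteine protease, had the most negative log2 fold change of the 46, -3.69 (SE 0.39, adjusted p = 3.12e-05). It was also scarce, with 65, 91 and 41 reads without doxycycline and 7, 5 and 5 reads at 100 ng/mL, so its 12.9-fold fall rests on few reads. TPP1, a tripeptidyl peptidase, fell 2.26-fold, CTSZ 1.81-fold and CTSC, a cysteine protease that activates serine proteases, 1.71-fold. CTSH (-0.28) and CTSK (0.16), both cysteine proteases of low level here, did not pass the test and their groups overlapped.

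Among glycosidases 8 of 12 fell, with a median of -0.67. FUCA2, a fucosidase, was 106, 102 and 119 CPM without doxycycline and 25.5, 25.8 and 34.8 CPM at 100 ng/mL, a 3.79-fold fall (log2 fold change -1.92, SE 0.14, adjusted p = 1.59e-06). MAN2B1, the acid α-mannosidase, was 132, 112 and 118 CPM and then 40.1, 54.7 and 49.1 CPM. NEU1, the sialidase that CTSA stabilises, was 91.8, 79.3 and 90.0 CPM and then 29.7, 40.1 and 35.5 CPM. No library at 100 ng/mL reached any library without doxycycline in these 3 genes. GLB1 (β-galactosidase, -0.998), GUSB (β-glucuronidase, -0.94), GAA (acid α-glucosidase, -0.69), FUCA1 (-0.65) and HEXA (-0.62) fell less. MANBA (-0.43), NAGLU (-0.24), GLA (-0.14) and IDUA (0.04) did not pass the test.

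Of 5 sulfatases, which strip sulfate from glycosaminoglycans and sulfatides, 2 fell. ARSB was 51.2, 55.8 and 53.4 CPM without doxycycline and 17.0, 15.4 and 22.3 CPM at 100 ng/mL, a 2.93-fold fall with no overlap. GALNS was 28.5, 28.0 and 29.7 CPM and then 15.1, 20.2 and 18.2 CPM, a 1.61-fold fall. The log2 fold changes of ARSA, IDS and SGSH lay between -0.23 and -0.18 and did not pass.

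Among lipid enzymes and cofactors 6 of 8 fell, with a median of -1.11. NPC2, which carries cholesterol in the lysosomal lumen, was 42.8, 36.4 and 37.3 CPM without doxycycline, 26.5, 27.1 and 18.4 CPM at 10 ng/mL and 5.36, 6.44 and 5.54 CPM at 100 ng/mL. The 3 doses were apart, and the fall at 100 ng/mL was 6.69-fold (log2 fold change -2.74, SE 0.15, adjusted p = 1.8e-07). PPT1, a thioesterase that removes palmitate from proteins, was 117, 140 and 128 CPM and then 31.3, 30.1 and 36.8 CPM, a 3.92-fold fall. CAP1 on the opposite strand covers 23.4% of its exon bases. PSAP, the precursor of the saposins, which help enzymes to reach sphingolipids, was 375, 326 and 337 CPM and then 121, 143 and 126 CPM, a 2.65-fold fall. ASAH1 (acid ceramidase, -1.22), SMPD1 (acid sphingomyelinase, -1.01) and GM2A (an activator that presents gangliosides for breakdown, -0.79) also fell. LIPA (acid lipase, -0.35) and PPT2 (-0.09) did not pass. The exons of PPT2 share 49.3% of their bases with PPT2-EGFL8 on the same strand, so its reads may be split.

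Of the 3 other lumenal proteins GRN and GGH fell. GRN, the precursor of the granulins, was 251, 218 and 207 CPM without doxycycline and 29.8, 41.8 and 36.3 CPM at 100 ng/mL, a 6.26-fold fall with no overlap (log2 fold change -2.65, SE 0.14, adjusted p = 1.8e-07). GGH, which trims glutamate from folates, was 67.7, 78.2 and 66.2 CPM and then 16.7, 15.3 and 16.7 CPM, a 4.35-fold fall. ACP2, an acid phosphatase, was 52.6, 47.9 and 52.4 CPM and then 42.6, 58.6 and 47.9 CPM, with overlapping groups and a log2 fold change of -0.03 (SE 0.13, adjusted p = 0.888).

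Of the 7 membrane proteins 5 fell. LAMP1, among the most abundant glycoproteins of the lysosomal membrane, was 290, 283 and 291 CPM without doxycycline, 213, 243 and 170 CPM at 10 ng/mL and 83.7, 90.8 and 92.8 CPM at 100 ng/mL. Its 3 doses did not overlap, and the fall was 3.23-fold (log2 fold change -1.69, SE 0.10, adjusted p = 3.03e-07). NPC1, which exports cholesterol handed over by NPC2, was 110, 105 and 117 CPM and then 50.9, 49.7 and 51.4 CPM. SCARB2, which carries a hydrolase to lysosomes (-0.88), the tetraspanin CD63 (-0.76) and LAMP2 (-0.74) fell less. MCOLN1, a calcium channel, was 24.8, 23.8 and 24.7 CPM and then 14.4, 18.5 and 15.6 CPM, and at an adjusted p of 0.0105 (log2 fold change -0.59) it did not pass although its groups were apart. CLN3 (-0.06) did not pass, with 25.2% of its exon bases shared with the gene model AC138894.1.

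Both mannose 6-phosphate receptors fell, by nearly the same factor. M6PR, the smaller receptor, was 115, 117 and 123 CPM without doxycycline and 37.7, 36.9 and 40.4 CPM at 100 ng/mL, a 3.08-fold fall (log2 fold change -1.62, SE 0.11). IGF2R, the larger receptor, which also binds insulin-like growth factor, was 316, 298 and 338 CPM and then 101, 115 and 103 CPM, a 2.98-fold fall (log2 fold change -1.57, SE 0.11). No libraries overlapped in either gene. PHC1 on the opposite strand covers 29.3% of the exon bases of M6PR, and since the sources used here do not say whether counting used strand, reads of the 2 genes cannot be told apart.

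**Figure D2:**
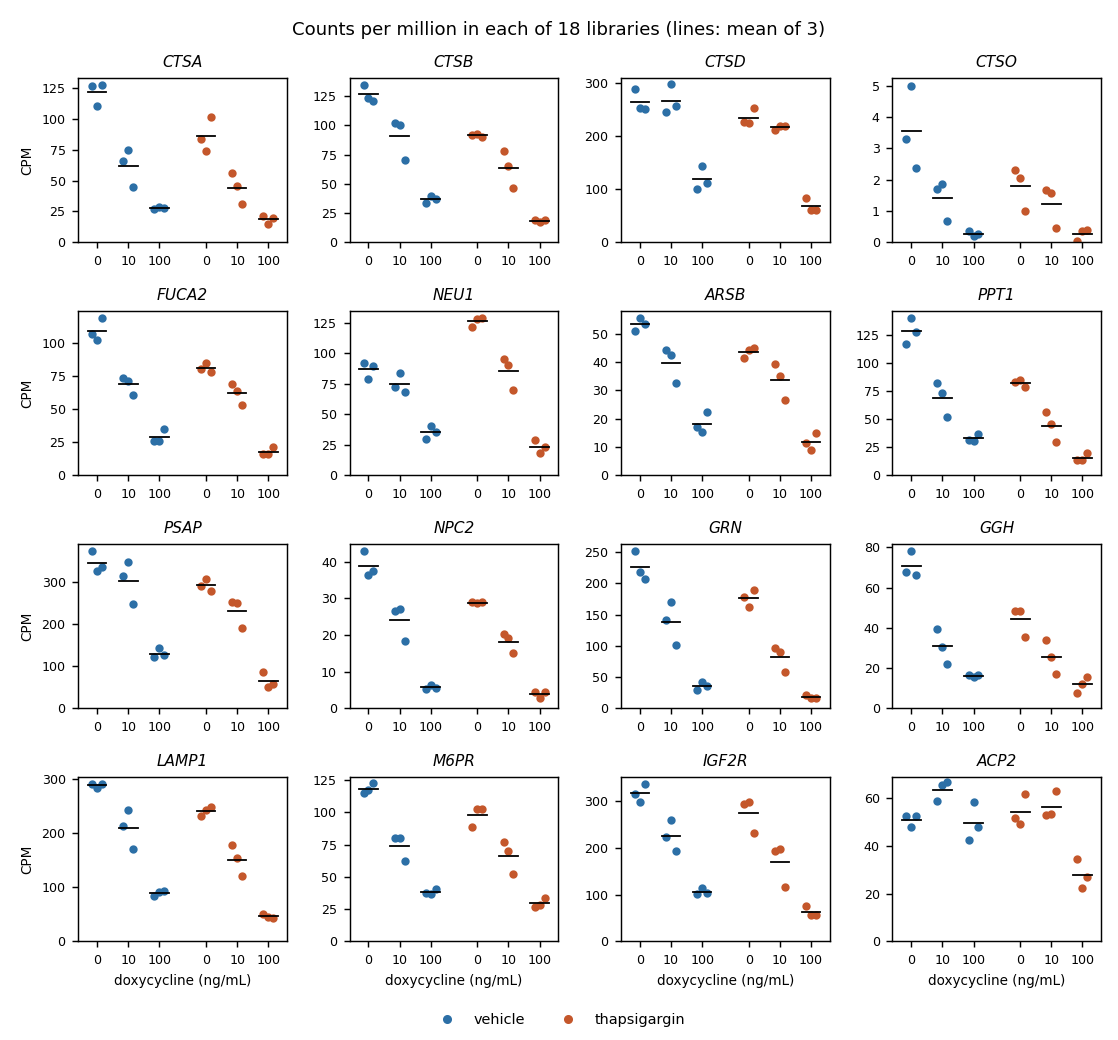
CPM of 16 lysosomal genes against doxycycline dose in ng/mL, each point a library (blue, vehicle, and orange, thapsigargin) and each line a mean of 3, with a separate vertical axis from 0 for each gene. Levels step down with dose in CTSA, NPC2, GRN and LAMP1, while ACP2 overlaps between 0 and 100 ng/mL in vehicle and is lower at 100 ng/mL in thapsigargin.

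**Figure D3:**
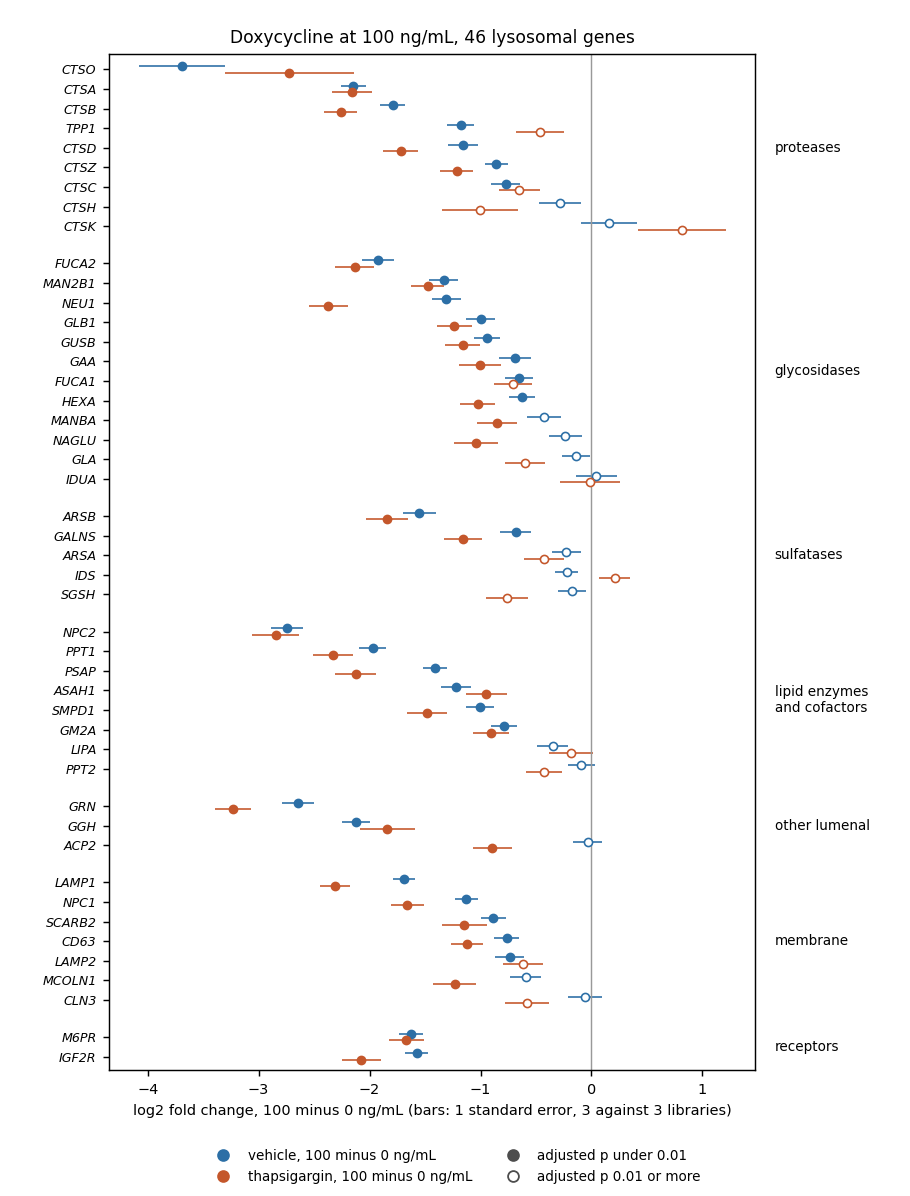
Log2 fold change, 100 minus 0 ng/mL doxycycline, of the 46 lysosomal genes by role, in vehicle (blue) and in thapsigargin (orange), with bars of 1 standard error. Filled points passed an adjusted p of 0.01, 32 genes in each treatment, and no gene passed above 0.

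The coding sequences were searched for CTGCAG, the letters at a site where IRE1 enzymes cut the XBP1 transcript. The coding strand was read, and the motif reads the same on both strands. Other cut sequences were not searched. CTGCAG stood at least once in the coding sequence of 33 of the 46 genes, 71.7%. This share was 71.9% in the 32 genes that fell at 100 ng/mL, 71.4% in the 14 that did not pass, and 70.4% in 12761 protein-coding genes with a mean of 10 reads. Per kilobase of coding sequence there were 0.963 motifs in the lysosomal genes and 1.09 in all of them. The following windows of 30 bases show the motif in capitals in XBP1, the known substrate, in 6 genes with large falls, and in 2 genes, ACP2 and IDUA, whose log2 fold changes were among the 5 nearest to 0. For genes with several copies 1 is shown. All lie in coding exons of GENCODE 29 transcripts on GRCh38 and are read 5′ to 3′ along the transcript.
XBP1 (chr22:28796112-28796141, minus strand): ctacgtgcacctCTGCAGcaggtgcaggcc
GRN (chr17:44349702-44349731, plus strand): acggggcttccaCTGCAGtgcagacgggcg
CTSA (chr20:45891970-45891999, plus strand): tgggggtcccggCTGCAGctcactagatgg
PPT1 (chr1:40097152-40097181, minus strand): gcttctcgggcgCTGCAGcatctggacccg
FUCA2 (chr6:143502473-143502502, minus strand): tggcttctatacCTGCAGtgatcgttataa
LAMP1 (chr13:113319606-113319635, plus strand): gccagcatggggCTGCAGctgaacctcacc
M6PR (chr12:8941880-8941909, minus strand): ctcgaaatgtgcCTGCAGcatatcgtggtg
ACP2 (chr11:47245513-47245542, minus strand): cgttatgagcagCTGCAGaacgagacccgg
IDUA (chr4:1003061-1003090, plus strand): ggacaacgggctCTGCAGccccgacggcga
The share of genes with the 6 letters was thus alike in genes that fell, in genes that did not pass and in all genes. Untranslated regions were not searched, and whether the motif bears on the falls was not tested. NPC2, with the second most negative log2 fold change, has no CTGCAG in its coding sequence, nor do CTSB and CTSO. The fold of the RNA around a site was not examined.

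Promoters were searched for CACGTG, the core of the element through which the transcription factor TFEB and its relatives act on lysosomal genes. RefSeq promoters (GRCh38.p14, 250 bases before to 50 after the start site) were matched by symbol for 34 of the 46 genes. CACGTG, which reads the same on both strands, stood in 10 of them, 29.4%, against 9.99% of 10530 promoters of genes with a mean of 10 reads. It stood in 8 of 25 matched genes that fell at 100 ng/mL and in 2 of 9 that did not pass. The promoters of LAMP1, with 6 copies, CTSA, with 2, IGF2R, with 3, and CLN3, with 2 and no fall, are shown from 250 bases before to 30 after the start site, with the motif in capitals.
LAMP1 (chr13:113296989-113297268, plus strand): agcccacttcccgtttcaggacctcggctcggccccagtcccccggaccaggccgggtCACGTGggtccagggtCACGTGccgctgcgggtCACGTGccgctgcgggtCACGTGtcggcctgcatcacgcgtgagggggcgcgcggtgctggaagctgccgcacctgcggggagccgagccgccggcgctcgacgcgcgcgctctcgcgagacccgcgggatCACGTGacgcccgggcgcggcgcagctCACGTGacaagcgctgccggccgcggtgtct
CTSA (chr20:45891085-45891364, plus strand): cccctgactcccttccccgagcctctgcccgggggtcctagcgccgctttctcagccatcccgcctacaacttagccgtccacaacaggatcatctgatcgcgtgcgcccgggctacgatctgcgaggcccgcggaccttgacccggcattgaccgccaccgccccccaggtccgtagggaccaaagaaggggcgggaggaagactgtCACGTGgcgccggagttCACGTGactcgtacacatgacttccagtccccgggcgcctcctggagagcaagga
IGF2R (chr6:159968832-159969111, plus strand): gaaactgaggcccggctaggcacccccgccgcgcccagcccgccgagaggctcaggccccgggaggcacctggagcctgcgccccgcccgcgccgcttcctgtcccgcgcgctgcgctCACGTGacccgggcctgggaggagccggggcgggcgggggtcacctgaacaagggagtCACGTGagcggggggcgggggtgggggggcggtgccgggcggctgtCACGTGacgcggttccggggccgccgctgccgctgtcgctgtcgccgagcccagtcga
CLN3 (chr16:28492045-28492324, minus strand): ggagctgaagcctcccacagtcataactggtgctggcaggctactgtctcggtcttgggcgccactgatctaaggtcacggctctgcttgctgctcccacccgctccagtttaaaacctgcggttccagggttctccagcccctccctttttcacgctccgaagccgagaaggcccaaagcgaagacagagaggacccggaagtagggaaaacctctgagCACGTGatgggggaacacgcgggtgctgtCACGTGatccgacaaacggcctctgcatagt
Large falls occurred with many copies, as in LAMP1, and with none, as in GRN and NPC2. A match describes these letters only. Variants of the motif were not searched, and whether it bears on the falls was not tested. CTSB, CTSK, CTSO, PSAP, LAMP2, HEXA, ASAH1, ARSA, NAGLU, MANBA, SGSH and GGH had no entry in the promoter table.

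At 10 ng/mL in vehicle the falls were smaller and few passed. GGH was the only gene of the 46 called lower (39.5, 30.7 and 22.1 CPM against 67.7, 78.2 and 66.2 CPM, log2 fold change -1.20, SE 0.18, adjusted p = 0.00936), where 0.0552% of 14497 genes tested were. None was called higher by edgeR, where 0.138% of all genes were, or by DESeq2, where 0.738% were. At an unadjusted p of 0.05, 17 of the 46 were lower and 3 higher, against 16.5% and 14.0% of all genes. The median over the 46 genes was -0.13, against 0.0024 over all genes, and in 20 genes the groups did not overlap with 10 ng/mL lower, against 15.4% of all genes. CTSA (-0.97, adjusted p = 0.0171), PPT1 (-0.90, adjusted p = 0.0186), FUCA2 (-0.67, adjusted p = 0.021) and M6PR (-0.67, adjusted p = 0.0221) came next after GGH in adjusted p. The call of GGH depended on single libraries, as did calls over all genes. It was lost without any of the 3 libraries without doxycycline and without replicate 2 at 10 ng/mL, in fits that called 0% of all genes in either direction. It was also lost without replicate 3 at 10 ng/mL, where 0.0547% of all genes were lower. Without replicate 1 at 10 ng/mL, 16 of the 46 genes were called lower, in a fit that called 10.7% of all genes lower and 8.05% higher.

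From 10 to 100 ng/mL in vehicle 18 of the 46 genes fell, where 2.43% of 14549 genes tested did, and 0 rose, where 0.0137% of all genes did. DESeq2 called 27 lower and 0 higher (5.42% and 0.0894% of all genes), and at an unadjusted p of 0.05, 38 were lower and 0 higher (12.7% and 3.4% of all genes). All 46 log2 fold changes, 100 minus 10 ng/mL, lay below 0, with a median of -0.67 against 0.0184 over all genes tested. The 18 genes were also among the 32 called lower against 0 ng/mL, which shares the 100 ng/mL libraries. NPC2 (-2.04, SE 0.19) and GRN (-1.92, SE 0.20) had the most negative values among the called genes, while the scarce CTSO had -2.34 and did not pass (adjusted p = 0.0204). GLA (-0.09) and CTSK (-0.08) lay nearest to 0. CTSD was 246, 298 and 258 CPM at 10 ng/mL, with a log2 fold change of 0.01 against no doxycycline, and fell only in the step to 100 ng/mL (-1.16, adjusted p = 0.00268). SMPD1 had a like course, with 32.5, 32.5 and 35.1 CPM without doxycycline, 34.1, 38.7 and 29.6 CPM at 10 ng/mL (0.03) and 15.4, 17.4 and 17.0 CPM at 100 ng/mL (-1.03, adjusted p = 0.0036). GGH, by contrast, reached -1.20 of its -2.12 at 10 ng/mL. The difference between these courses was not tested. The count of 18 became 2 without replicate 2 at 10 ng/mL, and 3 and 0 without replicate 1 and replicate 3 at 100 ng/mL, in fits that called 0.0611%, 0.136% and 0% of all genes lower.

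In thapsigargin-treated cells 100 ng/mL doxycycline lowered 32 of the 46 genes, where 9.00% of 14358 genes tested were called lower, and 0 were called higher, where 1.53% of all genes were. DESeq2 called 36 lower and 0 higher (11.5% and 4.72% of all genes), and at an unadjusted p of 0.05, 41 were lower and 0 higher (19.3% and 16.3% of all genes). The median log2 fold change was -1.15 against 0.0439 over all genes. In 42 genes all 3 libraries at 100 ng/mL lay below all 3 without doxycycline, against 23.2% of all genes tested. These libraries were not used in the comparison in vehicle, and 28 genes were called lower in both treatments, 28 of 32 in each. The overlap between treatments over all genes was not counted. The 4 genes called in vehicle alone were CTSC, FUCA1, LAMP2 and TPP1, and the 4 in thapsigargin alone were ACP2, MANBA, MCOLN1 and NAGLU. ARSA, CLN3, CTSH, CTSK, GLA, IDS, IDUA, LIPA, PPT2 and SGSH were called in neither. Whether these genes differed between the treatments is given by the interaction tests further on.

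GRN had the most negative value in thapsigargin, with 179, 162 and 190 CPM without doxycycline and 21.4, 16.0 and 16.8 CPM at 100 ng/mL, a 9.38-fold fall (log2 fold change -3.23, SE 0.16, adjusted p = 5.11e-07). NPC2 was 28.9, 28.6 and 28.9 CPM and then 4.34, 2.66 and 4.39 CPM, a 7.20-fold fall. LAMP1 was 232, 242 and 249 CPM and then 50.7, 44.7 and 43.7 CPM, a 4.97-fold fall. In all 3 genes the groups were far apart. Their values were more negative than in vehicle, as were those of 37 of the 46 genes between the separate fits. In the interaction fit 33 of the 46 values lay below 0, against 6898 of 14768 genes tested. None of these differences in the 46 genes passed the interaction test. IGF2R fell 4.21-fold and M6PR 3.18-fold. TPP1 was spread at 100 ng/mL, with 34.6, 60.7 and 63.5 CPM against 81.9, 78.2 and 68.6 CPM without doxycycline, and did not pass (-0.46, adjusted p = 0.148).

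At 10 ng/mL in thapsigargin edgeR called none of the 46 genes in either direction, and 0% of 14509 genes tested lower and 0% higher. At an unadjusted p of 0.05, 16 of the 46 were lower and 0 higher (2.99% and 1.23% of all genes), and DESeq2 called 5 lower and 0 higher (0.255% and 0.0138% of all genes). Libraries with the same replicate number deviated together in this comparison, though the labels do not say that they are paired. With the replicate number as a block, 14 of the 46 genes were called lower and 0 higher. In that fit 2.53% of all genes were lower and 1.36% higher. The median was -0.14, and GRN (96.3, 90.3 and 58.8 CPM, log2 fold change -1.11), CTSA (56.0, 45.5 and 30.6 CPM, -0.97) and PPT1 (56.0, 45.4 and 29.5 CPM, -0.91) had the most negative values. In each of the 3 genes replicate 3 was the lowest at 10 ng/mL, and the groups did not overlap. Mean levels stepped down from 0 to 10 and from 10 to 100 ng/mL in 38 of the 46 genes in thapsigargin and in 33 in vehicle. The share of all genes with this course was not counted.

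Thapsigargin alone, without doxycycline, lowered 10 of the 46 genes, where 4.74% of 14397 genes tested fell, and raised 1, where 6.45% rose. The median log2 fold change, thapsigargin minus vehicle, was -0.27 against -0.0066 over all genes, and 39 values lay below 0. GM2A had the most negative called value, with 52.1, 48.9 and 50.4 CPM in vehicle and 28.6, 28.3 and 31.2 CPM in thapsigargin (log2 fold change -0.77, SE 0.11, adjusted p = 0.000418). LAMP2 (-0.67), GGH (-0.66), PPT1 (-0.63), CTSC (-0.60), TPP1 (-0.55), FUCA1 (-0.54), MAN2B1 (-0.46), CTSB (-0.46) and CD63 (-0.46) followed. The receptors M6PR (-0.26, adjusted p = 0.0859) and IGF2R (-0.19, adjusted p = 0.251) did not pass. The count of 10 ranged from 2 to 10 with each library left out in turn, and it was 2 without replicate 1, 5 without replicate 2 and 3 without replicate 3 of the vehicle libraries, and 4 without replicate 1 or replicate 2 of the thapsigargin libraries. These 5 fits called between 2.03% and 3.03% of all genes lower.

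The gene that rose was NEU1, the sialidase. It was 91.8, 79.3 and 90.0 CPM in vehicle and 122, 128 and 129 CPM in thapsigargin, with no overlap (log2 fold change 0.55, SE 0.10, adjusted p = 0.00235). The call was lost without replicate 1 or replicate 2 of the vehicle libraries. NAGLU, a glucosaminidase of heparan sulfate breakdown, had a value of 0.51 (17.5, 17.4 and 17.9 CPM against 24.5, 23.0 and 26.9 CPM, adjusted p = 0.0108) and did not pass, although the groups were apart.

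At 100 ng/mL edgeR called none of the 45 genes tested as changed by thapsigargin, where 0.0208% of 14427 genes tested were called lower and 0.180% higher. CTSO was too scarce to be tested here. At an unadjusted p of 0.05, 33 of the 45 were lower and 0 higher (12.3% and 14.6% of all genes), and DESeq2 called 14 lower and 0 higher (3.29% and 1.78% of all genes). The median was -0.55 against -0.0024 over all genes, and 32 genes had all 3 thapsigargin libraries below all 3 vehicle libraries, against 15.8% of all genes. LAMP1 (-0.90, SE 0.14, adjusted p = 0.0118) and CTSB (-0.95, SE 0.15, adjusted p = 0.0131) came nearest to the threshold, followed by GM2A (-0.91) and CD63 (-0.84). Replicate 1 of the thapsigargin libraries had the most ERN2 of its group. Counted in the 46 genes only, it was the highest of the 3 libraries in 27, such as PSAP (85.4 CPM against 51.2 and 56.5 CPM). It was the lowest in 11, such as TPP1 (34.6 CPM against 60.7 and 63.5 CPM). Without that library 20 genes were called lower, in a fit that called 7.84% of all genes lower and 9.78% higher.

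The response to thapsigargin at 100 ng/mL was compared with that without doxycycline as an interaction over 12 libraries. None of the 46 genes passed in edgeR, where 0.0339% of 14768 genes tested passed as lower and 0.00677% as higher. At an unadjusted p of 0.05, 14 had a more negative and 2 a more positive response at 100 ng/mL (9.15% and 15.6% of all genes), and DESeq2 called 3 lower and 0 higher (1.37% and 0.934% of all genes). NEU1 had the most negative value. Its level rose without doxycycline but was 29.7, 40.1 and 35.5 CPM in vehicle and 29.04, 18.0 and 23.1 CPM in thapsigargin at 100 ng/mL (interaction -1.01, SE 0.21, adjusted p = 0.0344). ACP2 (-0.80, adjusted p = 0.0738) and NAGLU (-0.74, adjusted p = 0.0986) came next, and TPP1 (0.77, adjusted p = 0.119) and CTSO (1.02, adjusted p = 0.462) had the most positive values. Without replicate 1 of the thapsigargin libraries at 100 ng/mL, 6 genes passed as lower and 1 as higher, where 2.82% of all genes passed as lower and 5.79% as higher.

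**Figure D4:**
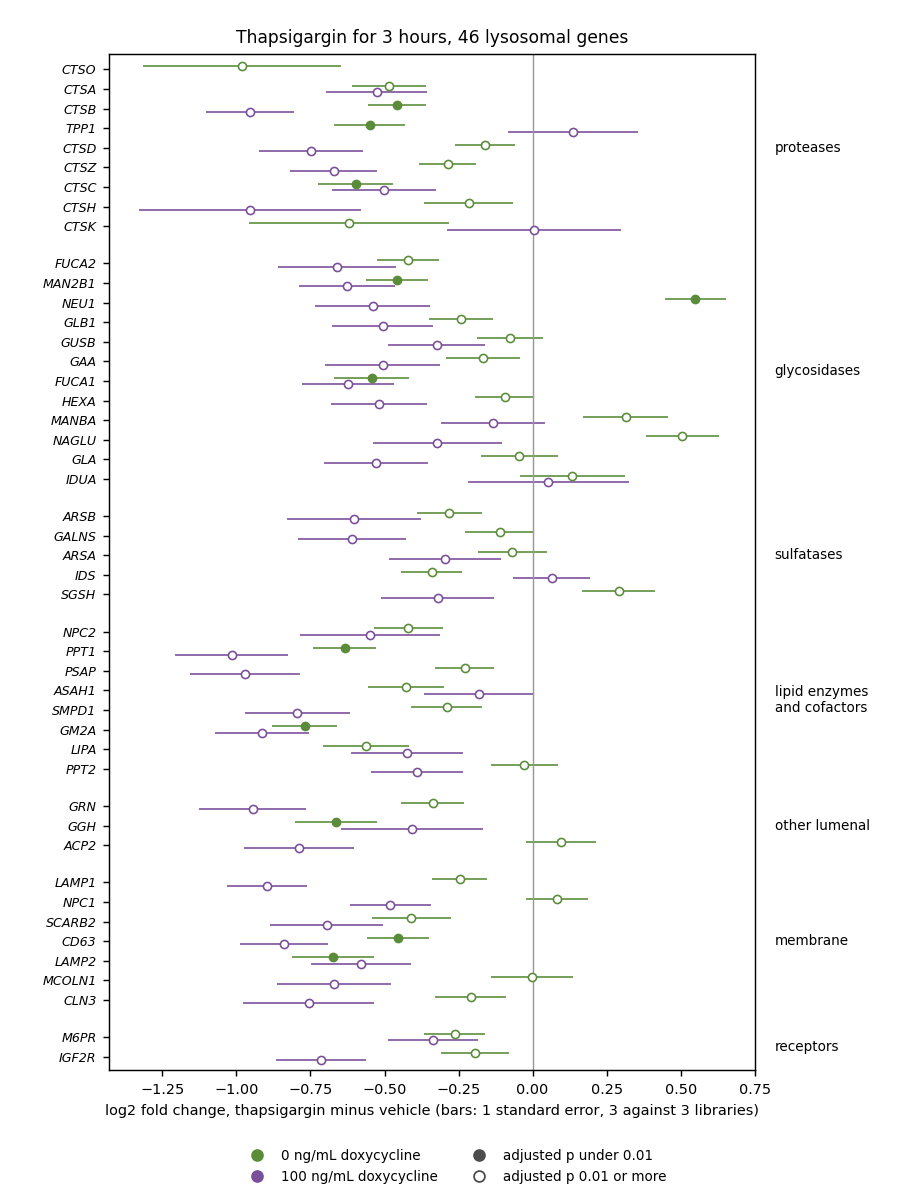
Log2 fold change, thapsigargin minus vehicle, of the lysosomal genes by role, without doxycycline (green) and at 100 ng/mL (purple), with bars of 1 standard error. Filled points passed an adjusted p of 0.01. Without doxycycline 10 genes passed below 0 and NEU1 above it, and at 100 ng/mL no gene passed although 41 of 45 values lie below 0.

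Levels of the genes were compared with each other only per kilobase of transcript, without doxycycline in vehicle. CD63 (134 ± 10.5 CPM per kilobase, SD, n = 3), CTSZ (132 ± 7.30), CTSD (125 ± 10.0) and PSAP (120 ± 8.90) were the highest and lay within their spread of each other. LAMP1 (107 ± 1.59) and GRN (96.4 ± 9.77) followed, and CTSA (56.6 ± 4.35) came next after a gap. IDUA (2.40 ± 0.23), CTSK (1.21 ± 0.22) and CTSO (1.21 ± 0.45) were the lowest. At 100 ng/mL CD63 (78.9 ± 7.26) and CTSZ (73.1 ± 6.13) were still the highest, while GRN was at 15.4 ± 2.56 and NPC2, 37.5 ± 3.34 without doxycycline, was at 5.58 ± 0.56 CPM per kilobase.

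Further lysosomal genes outside the 46, listed with earlier results of these data known, were counted in the same fits. At 100 ng/mL in vehicle 7.49% of all genes tested were called lower and 0.838% higher. In vehicle at 100 ng/mL, 12 of 22 other hydrolases tested fell, with a median log2 fold change of -0.83, among them MAN2B2, a mannosidase (-1.49), and PLD3, a member of the phospholipase D family (-1.47). Of 15 other membrane proteins 4 fell (median -0.32), with OSTM1 (-1.97), SLC17A5 (-0.99) and LAPTM4B (-0.89) the most negative. Of 8 genes for tagging, sorting and transcription control 4 fell (median -0.47), namely SORT1, a sorting receptor (-1.75), GNPTAB (-1.12) and GNPTG (-0.87) of the enzyme that adds the mannose 6-phosphate tag, and SUMF1, which activates sulfatases (-1.08). TFEB (0.18), TFE3 (0.18) and MITF (-0.08), the transcription factors, did not pass. Of 20 proteins that sit on the cytosolic face of lysosomes and are made without entering the ER, none was called by edgeR. Their median was 0.17, and they included LAMTOR1 (0.38) and LAMTOR4 (0.45). At an unadjusted p of 0.05, 2 of the 20 were higher and 0 lower, against 12.2% and 17.1% of all genes.

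**Figure D5:**
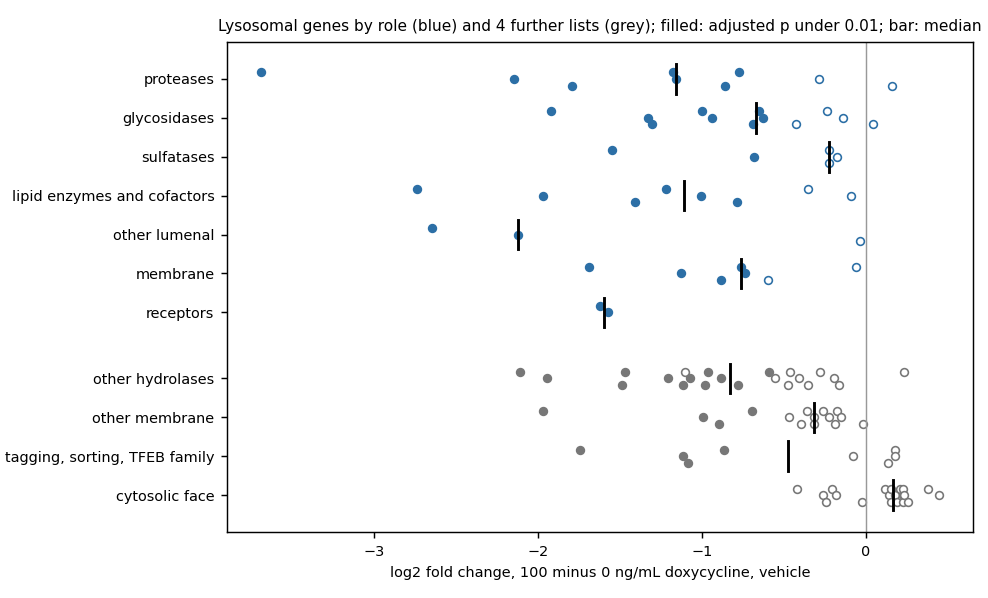
Log2 fold change, 100 minus 0 ng/mL doxycycline in vehicle, of the 46 lysosomal genes by role (blue) and of 4 further lists of lysosomal genes (grey). Each point is a gene, filled where the adjusted p was under 0.01, and each bar is a list's median, from -2.12 for other lumenal proteins to -0.23 for sulfatases among the blue groups and 0.17 for proteins of the cytosolic face.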

How the data were processed

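Libraries were prepared with the KAPA stranded mRNA HyperPrep kit and sequenced as single reads of 75 cycles. Reads were mapped by the authors with STAR, run within VIPER, and what they deposited is a table of raw read counts, with gene symbols as rows and a column for each of the 18 libraries. Genome build hg38 and the tools STAR and DESeq2 come from the submitters' processing notes. Their versions, the annotation and the strand setting of the counting are not given in the sources used here. The labels' extraction text speaks of colon crypt cells, although every sample is labelled as the cell line, and the labels for the cell line were followed. In 28 rows a date stands in place of a symbol, and none of the 46 genes is among them.

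The sample labels gave the group and the replicate number of each library. The genes, the further lists and the comparisons were chosen with earlier results of these data known. Each comparison was fitted over all genes in its own libraries, with filterByExpr at a minimum count of 10, TMM scaling and the quasi-likelihood test of edgeR 4.0.16 in R 4.3.3, after which p-values were adjusted by Benjamini-Hochberg and called at 0.01. Standard errors were derived from the log2 fold change and its F statistic. CPM (counts scaled to effective library size) used TMM factors over 18 libraries. An exact permutation test of 3 against 3 libraries cannot go below 0.1, so none was run. Tests were checked on made-up counts with 200 changed genes.

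The text names every gene of the 46 that passed the threshold in a comparison (up to 30 by size), the 5 with the smallest changes at 100 ng/mL in vehicle, those against the majority, the receptors and membrane proteins, and up to 3 genes in each direction of each further list, some of which are not reported here. GNPTG and PLD3 are named after their values were seen, and so are genes given as not passing. Alternatives were DESeq2 1.42.0, RLE size factors, library totals, no filter on low counts, all 18 libraries in 1 fit, the replicate number as a block, a looser threshold of 0.05 and each library left out in turn. The labels give replicate numbers but do not say that a shared number is a pairing. For 10 against 0 ng/mL in thapsigargin, deviations of same-numbered libraries from their group means correlated at 0.573, 0.52 and 0.662. Only in this comparison did every library correlate best with its own number. This was found by looking across the pairwise comparisons and was not tested. No replicate pair differed by as little as sampling noise (chi-square per degree of freedom of 6.99 or more). Positions, lengths and coding sequences came from GENCODE 29 (GRCh38), which has all 46 genes, and promoters from RefSeq. Plots used matplotlib 3.10.9 under Python 3.11.15.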

Additional observations from a re-analysis of the deposited data

How the results depend on the processing

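The falls at 100 ng/mL, in vehicle and in thapsigargin, kept their direction in the 32 called genes of each under every alternative. Alternatives that kept all libraries called 26 to 33 and 31 to 39 genes lower, and 4.87% to 11.2% and 8.07% to 13.8% of all genes. When any library was left out, 28 to 33 and 24 to 38 were called lower, and 5.71% to 8.7% and 5.03% to 13.7% of all genes. The smaller comparisons moved more. At 10 ng/mL in vehicle, 1 gene called lower became 5 at an adjusted p of 0.05, 10 with DESeq2, 10 with no filter, 0 with RLE size factors, 0 in a fit of all 18 libraries and 0 to 16 with each library left out. In the same order these called 0.393%, 1.89%, 2.36%, 0.0483%, 0.00666% and 0% to 10.7% of all genes lower. From 10 to 100 ng/mL, the 18 ranged from 0 to 20 with each library left out, in fits that called 0% to 3.3% of all genes lower. At 10 ng/mL in thapsigargin, 0 became 5 with DESeq2, which called 0.255% of all genes lower. For thapsigargin without doxycycline, 10 lower and 1 higher became 20 and 2 at an adjusted p of 0.05, where 10.5% and 12.2% of all genes were. They became 4 and 0 in a fit of all 18 libraries, against 510 and 763 of 15023 genes. The 1 higher became 2 with DESeq2 and 2 with no filter, against 1259 of 14397 and 1199 of 19837 genes. In fits short of a library the counts ranged from 2 to 10 and from 0 to 1, against 295 to 809 and 436 to 1092 over all genes. For thapsigargin at 100 ng/mL, 0 became 12 at an adjusted p of 0.05, 14 with DESeq2, 1 with library totals, 7 with no filter, 21 in a fit of all 18 libraries and 0 to 20 with each library left out. Over all genes that comparison called 3 lower and 26 higher, against 23 and 28 with library totals and 708 and 233 in a fit of all 18 libraries. It called 342 of 14427 genes lower at an adjusted p of 0.05, 475 with DESeq2 and 189 of 19818 with no filter. With each library left out it called 0 to 1142 genes lower. The interaction's 0 lower became 1 at an adjusted p of 0.05, 3 with DESeq2 and 0 to 6 with each library left out, and its 0 higher ranged from 0 to 1. Of 14768 genes, 80 were lower at an adjusted p of 0.05 and 203 with DESeq2. With each library left out, 2 to 421 of all genes were lower and 0 to 865 higher. Library totals moved the interaction's median over all genes from 0.04 to -0.14, and that over the 46 genes from -0.27 to -0.43. The causes were not tested.

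With the replicate number as a block, calls of lower genes became 6 at 10 ng/mL in vehicle (0.614% of all genes), 32 from 10 to 100 ng/mL in vehicle (7.71%), 14 at 10 ng/mL in thapsigargin (2.53%), and 19 lower and 2 higher for thapsigargin without doxycycline (12.0% and 12.8%). Except at 10 ng/mL in thapsigargin some same-numbered pairs correlated below 0.1, and not every library correlated best with its own number. A shared number is therefore not shown to be a pairing there. At 10 ng/mL in thapsigargin the labels do not give a pairing either. Depth limited CTSO most, with 1 to 8 reads in each library at 100 ng/mL.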

Other observations

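Thapsigargin without doxycycline also lowered lysosomal genes outside the 46. In this comparison 4.74% of all genes tested were called lower and 6.45% higher. Of 15 other membrane proteins 5 fell, with CD164, a sialomucin (-0.68, SE 0.14), SLC17A5, the sialic acid exporter (-0.66, SE 0.13), and OSTM1 (-0.61, SE 0.13) the most negative on the log2 scale. Of 22 other hydrolases 3 fell, among them the cathepsin CTSV (-0.70, SE 0.11) and PRCP (-0.51). GNPTAB fell by 0.78 on the log2 scale. On the cytosolic face 2 of 20 fell, a share of 10% against that 4.74%, namely RRAGD (-0.58) and LAMTOR5 (-0.55), neither of which passed at 100 ng/mL doxycycline in vehicle (-0.02 and 0.24). MITF, a relative of TFEB, rose from a mean of 10.5 to 19.1 CPM (log2 fold change 0.88, SE 0.15, adjusted p = 0.00128 in edgeR), while TFEB had a value of 0.66 that did not pass (adjusted p = 0.0364).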
